A study of Homo sapiens with 8 samples.

Results

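The histone cluster genes encode the core histones H2A, H2B, H3 and H4 and the linker histone H1, and lie in arrays on chromosomes 6 and 1 with a single H4 gene on chromosome 12. They were taken by name from GENCODE release 29: every gene of type protein_coding whose symbol starts with HIST1, HIST2, HIST3 or HIST4. The annotation holds 71 such genes. Of these, 36 had an identifier among the 48162 of the count files, and the other 35 were not analysed here. All 6 annotated H1 genes were among the 36, with 9 of 17 H2A genes, 10 of 18 H2B genes, 7 of 15 H3 genes and 4 of 15 H4 genes.

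RNA was measured in HT-29, a human colorectal adenocarcinoma line, in 4 wild-type (WT) libraries and 4 libraries of a line edited at MIEN1 with Cas9 (labelled HT-29-pMIEN1-X, called MIEN1_KO here). Each library came from RNA of 4 dishes mixed in equal amounts, and RNA with a poly-A tail was captured on poly-T beads before random priming. The edited cells had received plasmids for a 5′ guide, a 3′ guide and Cas9, then puromycin, then single-cell cloning and genotyping. How many clones were used is not given, and the labels mention cloning only for the edited cells, so the edit, the selection, the cloning and any batch cannot be told apart.

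Most histone cluster genes are replication-dependent: they are transcribed in S phase, when new DNA has to be packed. Their mRNA normally ends just after a conserved stem-loop, bound by SLBP, and carries no poly-A tail. Some of the same genes can also end at a poly-A signal further downstream, or splice to a downstream exon, which gives a tailed mRNA for the same protein. A poly-A library therefore takes in the tailed forms, together with any untailed RNA carried through the selection, and the counts do not tell the 2 kinds apart.

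The stem-loops of some members with large counts, and of others described below, are shown because they mark where the untailed mRNA would end. They were read from the GENCODE transcripts (GRCh38), 5′ to 3′, with the 16 bases that matched the histone stem-loop consensus in capitals and up to 5 bases on each side in lower case.
HIST1H2AC: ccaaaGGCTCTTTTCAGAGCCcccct
HIST1H2AG: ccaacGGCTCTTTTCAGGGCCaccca
HIST2H2BE: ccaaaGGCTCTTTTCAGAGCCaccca
HIST3H2A: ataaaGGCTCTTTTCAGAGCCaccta
HIST1H2BC: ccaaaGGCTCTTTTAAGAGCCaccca
HIST1H2BD: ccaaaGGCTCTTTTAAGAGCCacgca
HIST4H4: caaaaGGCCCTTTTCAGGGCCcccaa
HIST1H4H: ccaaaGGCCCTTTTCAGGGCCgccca
The search ran on the sense strand and allowed 1 mismatch. HIST1H2BC and HIST1H2BD match with C10A, counted from the first base of the stem-loop, and the other 6 match without a mismatch. Such a stem-loop was found in transcripts of 32 of the 71 members (45.1%) and of 21 of 58605 other genes (0.0358%). It can be found only where the model reaches past the stop codon, and 35 of the 71 members have no annotated 3′ UTR. HIST1H2BK, the member with the most counts, and HIST1H1C are among these 35, and no stem-loop was found in their models.

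Several models ran far beyond the stem-loop. In HIST1H2AG the transcript went on for 1761 bases after it, in HIST2H2BE for 1729 bases, in the longer coding model of HIST1H2AC for 1114 bases and in HIST3H2A for 390 bases. HIST1H2BC and HIST1H2BD each have a single-exon model with the stem-loop and a 2-exon model without it. HIST1H2BJ has a 2-exon coding model of 950 bases with no stem-loop. For HIST1H2BK the GENCODE model is only 381 bases, which is the coding sequence, while the RefSeq gene (H2BC12, GRCh38.p14) spans 8566 bases with 3 transcripts. The model of HIST1H1C is 642 bases long and its RefSeq gene 731 bases.

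H2A and H2B genes often sit head to head and share the DNA between their starts. RefSeq starts place 11 such pairs within 400 bases among the 66 members whose upstream sequence was at hand. Both partners of 6 pairs had an identifier in the files. HIST1H2AH was not among the 66, so a pair of it with HIST1H2BK is not counted. In GENCODE, HIST1H2AH starts at 27147129 on the plus strand of chromosome 6, just beyond the HIST1H2BK stretch printed below. Below are the stretches between the RefSeq starts (GRCh38.p14, plus strand, so that the H2B gene reads away to the left and the H2A gene to the right), and then the 250 bases before the start of HIST1H2BK on its own minus strand. Capitals mark the CCAAT box (the letters CCAAT), the TATA box (the letters TATAAA) and the octamer (the letters ATTTGCAT), each also where its reverse complement stands.
HIST1H2BC and HIST1H2AC, chr6:26123927-26124171: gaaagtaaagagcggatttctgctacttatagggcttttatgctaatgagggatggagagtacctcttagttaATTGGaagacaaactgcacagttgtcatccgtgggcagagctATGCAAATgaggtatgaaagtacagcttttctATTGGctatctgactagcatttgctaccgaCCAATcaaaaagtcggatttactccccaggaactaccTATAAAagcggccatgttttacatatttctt
HIST1H2BJ and HIST1H2AG, chr6:27132796-27133042: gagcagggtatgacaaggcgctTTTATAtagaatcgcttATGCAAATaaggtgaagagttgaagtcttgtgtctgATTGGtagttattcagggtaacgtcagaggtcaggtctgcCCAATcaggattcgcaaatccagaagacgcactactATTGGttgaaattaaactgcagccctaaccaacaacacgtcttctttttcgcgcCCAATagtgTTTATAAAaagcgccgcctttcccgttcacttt
HIST2H2BE and HIST2H2AC, chr1:149886683-149886917: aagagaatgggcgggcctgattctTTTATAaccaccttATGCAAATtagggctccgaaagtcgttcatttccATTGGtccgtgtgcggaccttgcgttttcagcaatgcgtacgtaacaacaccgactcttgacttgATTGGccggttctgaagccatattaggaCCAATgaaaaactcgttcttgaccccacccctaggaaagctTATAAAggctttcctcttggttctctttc
HIST1H2BK, chr6:27146859-27147108: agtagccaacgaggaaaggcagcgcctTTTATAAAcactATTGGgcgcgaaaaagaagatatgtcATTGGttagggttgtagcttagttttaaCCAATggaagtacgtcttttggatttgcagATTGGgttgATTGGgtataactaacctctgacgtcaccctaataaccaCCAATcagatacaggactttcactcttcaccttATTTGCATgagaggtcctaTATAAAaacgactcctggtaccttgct
In the 250 bases before a RefSeq start, searched on both strands, CCAAT was present in 56 of the 66 members with a window (84.8%), against 32.0% of all 35116 windows. TATAAA was present in 45 of 66 (68.2%) against 10.7%, and the octamer in 26 of 66 (39.4%) against 1.63%. The TATA letters of both strands can overlap, as in the run TTTATAAA. The matches describe the letters only.

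The libraries held 21940903 to 25148790 counts each. MIEN1, the edited gene, had 522, 594, 471 and 493 counts in the 4 WT libraries and 15, 19, 23 and 16 in the 4 edited ones, in the order of their replicate numbers (log2 fold change -4.73, SE 0.13, edgeR adjusted p = 1.1e-11; exact two-sided permutation p = 0.0286, the smallest that 4 against 4 can give). CPM here are counts scaled with TMM factors. MIEN1_KO replicate 4 stood apart from the other edited libraries, with a chi-square per degree of freedom of 29.1 to 33.0 against them, where the other 3 gave 3.40 to 13.1 among themselves and the WT libraries 2.46 to 7.32. All 12 colon epithelium markers checked had counts. The keratins KRT8, KRT18, KRT19 and KRT20 were higher in MIEN1_KO, with log2 fold changes of 0.51, 0.52, 0.53 and 0.41, and 5 markers were lower (LGALS4, CEACAM5, CDX1, CDX2 and CDH17), with CDX2 down to 0.275 CPM, CDH17 to 0.0326 CPM and CDX1 to 0.0116 CPM. Of 11 markers of leukocytes, endothelium and fibroblasts in the files, COL3A1 was at 0 and only COL1A1 and CD14 had enough counts to be tested, and the summed level of the list was 5.32 to 7.36 CPM in WT and 7.18 to 9.95 CPM in MIEN1_KO. COL1A1 was higher (log2 fold change 0.71, edgeR adjusted p = 0.00509), with 0.38 and no call under the GC correction described below. Whether they play a part in the histone values was not tested.

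Of the 36 histone cluster genes in the files, 7 were at 0 in all 8 libraries, 13 had too few counts and 16 were tested. Among the 16, 9 were higher in MIEN1_KO and none was lower with edgeR at a Benjamini-Hochberg adjusted p below 0.05, and none was lower at an unadjusted p below 0.05, with DESeq2 or with limma-voom. The background is high: 41.7% of the 14228 tested genes were called, 22% higher and 19.6% lower. At 1.5-fold or more, 7 of the 16 were higher, against 6.37% of all tested genes. The median log2 fold change over the 16 was 0.54, beside -0.01 over all tested genes. With upper-quartile scaling, the 3134 genes higher and 2793 lower became 2468 and 3752 and the median of all genes moved to -0.08, and the same 9 members were higher. Of the 16, 13 had at least 10 counts in every library of both groups. HIST2H2AC, HIST1H1E and HIST1H3D did not, and none of the 3 was called. In bulk RNA, more cells making a histone mRNA and more of it per cell cannot be told apart. The libraries of each group are described as independent, so p-values measure the spread between cultures of the lines used.

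**Figure D1:**
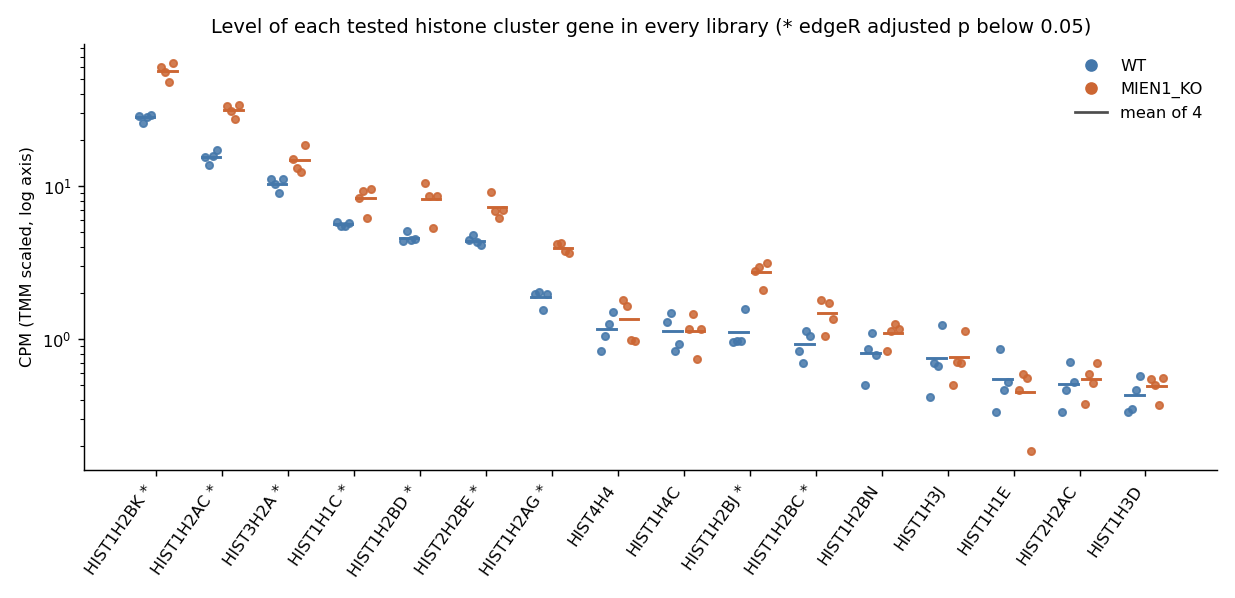
Level of each of the 16 tested histone cluster genes in CPM (log axis) for 4 WT and 4 MIEN1_KO libraries, points for libraries and lines for means, ordered by WT mean. HIST1H2BK and HIST1H2AC are at the top with no overlap between groups, and of the 9 genes from HIST4H4 to the right, all but HIST1H2BJ overlap.

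H2B, which pairs with H2A in the nucleosome, was the class with the most called members: 5 of 6 tested H2B genes were higher. HIST1H2BK (ENSG00000197903, GRCh38 chromosome 6, 27146418 to 27146798, minus strand, 1 exon) had 28.8, 25.8, 28.3 and 29.1 CPM in WT and 60.0, 55.5, 47.7 and 63.2 CPM in MIEN1_KO, again by replicate number. All edited libraries lay above all WT libraries, and the mean went from 28.0 ± 1.52 to 56.6 ± 6.70 CPM (SD, n = 4). The log2 fold change was 1.02 (SE 0.09, edgeR adjusted p = 1.1e-06). It was 0.69 after a correction for transcript GC content, which is 61.2% in this model.

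HIST1H2BJ (ENSG00000124635, chromosome 6, 27125897 to 27132750, minus strand) had the largest log2 fold change of the 16. Its levels were 0.960, 0.970, 0.963 and 1.58 CPM in WT and 2.77, 2.97, 2.10 and 3.12 CPM in MIEN1_KO. WT replicate 4 was the high one of its group and still lay below all edited libraries. The log2 fold change was 1.30 (SE 0.20, edgeR adjusted p = 1.9e-04) from 107 counts in WT and 249 in MIEN1_KO.

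HIST1H2BD (ENSG00000158373, chromosome 6, 26158146 to 26171349, plus strand) has a stem-loop model and a spliced model, and the counts do not separate them. It had 4.34, 5.05, 4.40 and 4.51 CPM in WT and 10.4, 8.62, 5.31 and 8.56 CPM in MIEN1_KO. MIEN1_KO replicate 3 came close to the highest WT library without overlapping it. The log2 fold change was 0.85 (SE 0.17, edgeR adjusted p = 0.00117).

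HIST2H2BE (ENSG00000184678, chromosome 1, 149884459 to 149886652, minus strand, 1 exon), an H2B gene with a long 3′ UTR in the annotation, had 4.46, 4.77, 4.27 and 4.08 CPM in WT. In MIEN1_KO it had 9.10, 6.82, 6.20 and 6.93 CPM. The groups did not overlap (log2 fold change 0.72, SE 0.13, edgeR adjusted p = 5.6e-04).

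HIST1H2BC (ENSG00000180596, chromosome 6, 26114873 to 26123926, minus strand) was the least stable of the called members. Its levels were 0.834, 0.699, 1.13 and 1.05 CPM in WT and 1.80, 1.05, 1.72 and 1.35 CPM in MIEN1_KO, so that MIEN1_KO replicate 2 lay within the WT range. The log2 fold change was 0.67 (SE 0.23, edgeR adjusted p = 0.0314). The adjusted p was 0.0756 without WT replicate 1, 0.102 without WT replicate 2, 0.0994 without MIEN1_KO replicate 1 and 0.0818 without MIEN1_KO replicate 3. HIST1H2BN, the H2B gene that was not called, had 78 counts in WT and 99 in MIEN1_KO (log2 fold change 0.43, SE 0.25). Its annotated exons overlap those of HIST1H2AK and HIST1H2AL, which were not analysed here.

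H2A genes were higher in 3 of 4 tested cases. HIST1H2AC (ENSG00000180573, chromosome 6, 26124145 to 26139116, plus strand) had 15.4, 13.7, 15.8 and 17.2 CPM in WT and 33.3, 30.8, 27.3 and 33.6 CPM in MIEN1_KO. The groups were well apart, at 15.6 ± 1.42 and 31.3 ± 2.90 CPM (SD, n = 4). The log2 fold change was 1.01 (SE 0.09, edgeR adjusted p = 1.5e-06), and 1.15 with the GC correction. HIST1H2AC and HIST1H2BK together took 54.4% of all member counts in WT and 61.4% in MIEN1_KO.

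HIST1H2AG (ENSG00000196787, chromosome 6, 27133042 to 27135291, plus strand, 1 exon) had 1.96, 2.02, 1.55 and 1.97 CPM in WT and 4.19, 4.23, 3.73 and 3.63 CPM in MIEN1_KO. Its lowest edited library was well above its highest WT library (log2 fold change 1.07, SE 0.14, edgeR adjusted p = 3.6e-05). HIST3H2A (ENSG00000181218, chromosome 1, 228456979 to 228457873, minus strand, 1 exon), the H2A gene of the small cluster at the far end of chromosome 1, had 11.1, 10.3, 8.96 and 11.1 CPM in WT. In MIEN1_KO it had 15.0, 13.1, 12.3 and 18.6 CPM, all above WT (log2 fold change 0.51, SE 0.12, edgeR adjusted p = 0.00527). With the GC correction its log2 fold change was 0.27 (edgeR adjusted p = 0.0400). HIST2H2AC had 49 counts in each group and was not called (log2 fold change 0.09, SE 0.30), and its sign turned with the GC correction, to -0.29.

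H1, the linker histone that binds DNA as it enters and leaves the nucleosome, had 1 of 2 tested genes higher. HIST1H1C (ENSG00000187837, chromosome 6, 26055787 to 26056428, minus strand, 1 exon) had 5.80, 5.47, 5.44 and 5.70 CPM in WT and 8.30, 9.21, 6.15 and 9.58 CPM in MIEN1_KO. MIEN1_KO replicate 3 was again the low one, just above WT. The log2 fold change was 0.57 (SE 0.13, edgeR adjusted p = 0.00298), and 0.34 with the GC correction (edgeR adjusted p = 0.0391). HIST1H1E had 53 counts in WT and 41 in MIEN1_KO (log2 fold change -0.28, SE 0.37).

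H3 and H4, which form the tetramer at the centre of the nucleosome, had no called gene among 2 tested H3 genes and 2 tested H4 genes. None of the 4 had an unadjusted edgeR p below 0.05, and none was called with DESeq2 or limma-voom. The log2 fold changes were 0.22 (SE 0.29) for HIST1H3D, 0.01 (SE 0.33) for HIST1H3J, 0.24 (SE 0.25) for HIST4H4 and 0.01 (SE 0.25) for HIST1H4C. In HIST1H4C the WT libraries had 1.29, 1.48, 0.837 and 0.920 CPM and the edited libraries 1.17, 1.46, 0.745 and 1.16 CPM, so the groups overlapped throughout. With 86 to 235 counts each over all 8 libraries, the SE of these 4 was 0.25 to 0.33, and the difference between classes was not tested. The GC correction turned the signs of HIST1H3D, HIST1H3J and HIST1H4C.

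**Figure D2:**
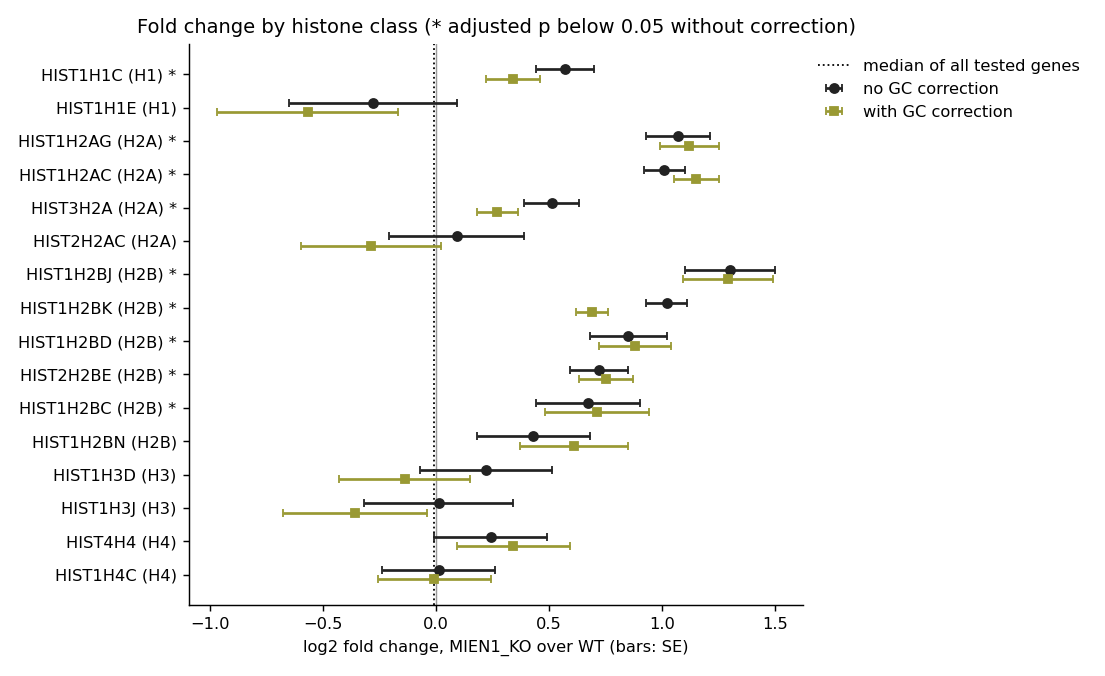
Log2 fold change of MIEN1_KO over WT for the 16 tested members, ordered by class, with SE bars, without (circles) and with (squares) GC correction. The 9 starred genes lie to the right of the median of all tested genes (-0.01) in both fits, and the H3 and H4 genes have bars that reach 0 in the fit without correction.

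In 8 of the 16 tested members, against 21.1% of all tested genes, every MIEN1_KO library lay above every WT library, and in none, against 19.8%, did every one lie below. Among the 9 called members, MIEN1_KO replicate 3 was the lowest edited library in 7 and replicate 4 the highest in 5. Without MIEN1_KO replicate 4, the library that stands apart, the 9 members were still called and none was lower. With the GC correction, the same 9 were called, beside 16.7% of all genes higher and 19.4% lower, and the median over the 16 was 0.47, beside -0.01 over all genes. The members' transcripts have a median GC content of 49.4%, close to the 48.8% of all tested genes.

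Levels can be compared between genes only per length. Per kilobase of GENCODE exon, HIST1H2BK was highest in WT at 73.5 CPM per kb, followed by HIST3H2A at 11.6, HIST1H2AC at 9.32, HIST1H1C at 8.73 and HIST1H2BD at 5.25 CPM per kb. The value for HIST1H2BK rests on a model of coding sequence only. The annotation used for counting is not given in the sources used here. All other tested members were below 3 CPM per kb in WT.

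As a share of all gene counts, the counts of the 36 genes summed to 81.4, 79.3, 80.0 and 87.9 CPM in WT and 151.9, 141.9, 117.4 and 144.6 CPM in MIEN1_KO, here without the TMM scaling. The groups did not overlap, and the mean went from 82.2 ± 3.95 to 139 ± 15.0 CPM (SD, n = 4), a ratio of 1.69. The ratio was 1.83 for H2B, 1.67 for H2A, 1.34 for H1, 1.13 for H4 and 1.01 for H3. Leaving out HIST1H2BK and HIST1H2AC, the ratio over the other genes was 1.43. These sums are a description and were not tested.

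**Figure D3:**
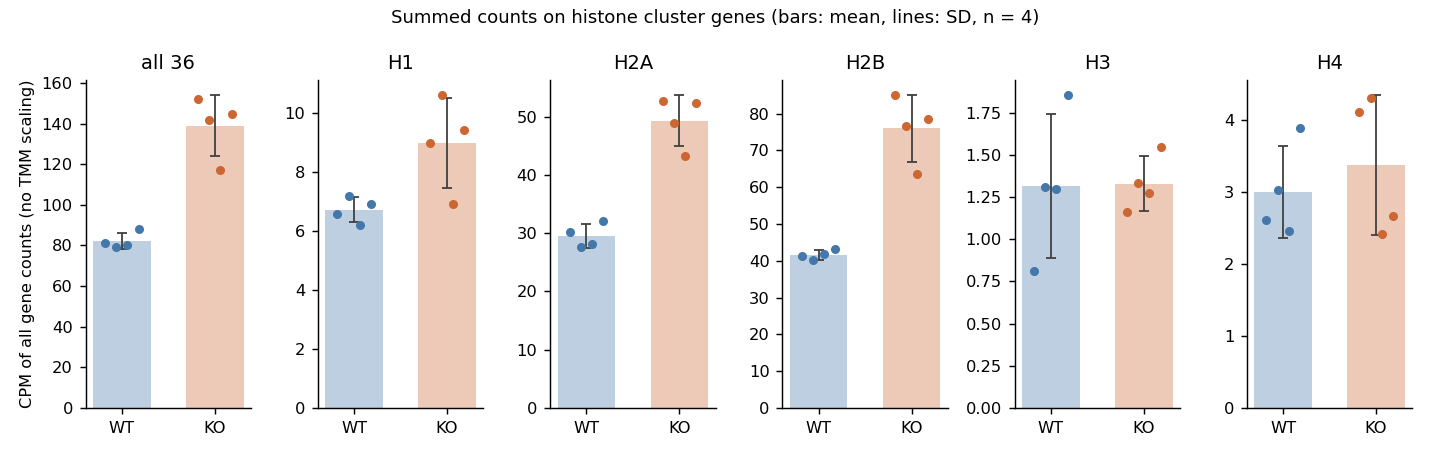
CPM of all gene counts, without TMM scaling, summed over all 36 histone cluster genes in the files and over each class, one point per library, bars for means and lines for SD (n = 4 per group). WT and MIEN1_KO are apart for all genes, H2A and H2B, and overlap for H1, H3 and H4.

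Partners of a head-to-head pair can be set side by side. In the pair HIST1H2BJ and HIST1H2AG, whose starts are 247 bases apart, both genes were higher by similar amounts, with log2 fold changes of 1.30 and 1.07. In the pair HIST1H2BC and HIST1H2AC, 245 bases apart, both were higher (0.67 and 1.01), while HIST1H2AC had 1494 counts in WT and HIST1H2BC 89. In the pair HIST2H2BE and HIST2H2AC, 235 bases apart, HIST2H2BE was higher (0.72) and HIST2H2AC was not called (0.09). In the pair HIST3H2A and HIST3H2BB, 229 bases apart, HIST3H2A was higher (0.51) and HIST3H2BB had 28 counts in WT and 34 in MIEN1_KO, too few to test. The differences between partners were not tested. Of the 2 other pairs, HIST1H2AA and HIST1H2BA were at 0 throughout, and HIST1H2BL and HIST1H2AI had 9 and 37 counts in WT and 14 and 26 in MIEN1_KO.

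Among the 9 called members, the 250 bases before the start held CCAAT in 9, TATAAA in 7 and the octamer in 6. Over all 14 tested members with a window, the numbers were 13, 11 and 8. A poly-A signal (AATAAA or ATTAAA, sense strand, in the last 50 bases of a coding model) was present in 8 tested members, and 7 of these were higher, with a median log2 fold change of 0.78. In the other 8, without the signal in the model, 2 were higher, HIST1H2BK and HIST1H1C, and the median was 0.16. Counted over transcripts of any type, 31 of the members' 100 GENCODE transcripts have such a signal (31.0%), beside 31.3% of the transcripts of other genes. A model without it may end early, as that of HIST1H2BK does, so the split describes the annotation and was not tested.

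Similar sequences limit what can be counted for some members. In GENCODE transcripts, the share of a member's stretches of 50 bases that occur in no other gene was 95.7% in the median of the 16 tested members. It was 25.9% for HIST1H2BK, most of whose stretches (61.4%) also occur in H2BFS, an H2B gene on chromosome 21 (43565189 to 43565648) that had 1 count over all 8 libraries beside 7833 for HIST1H2BK. For HIST1H3D the share was 0%: AL031777.3, not analysed here, covers the same exon. For HIST1H3J, the other tested H3 gene, the share was 59.1%. The stretches shared with HIST1H2AM, an overlapping gene on the same strand that was not analysed here, made up 40.9%. For the other 8 called members it was at least 91.9%. How reads that map to several places were handled is not given in the sources used here.

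Of the 7 members at 0 everywhere, 5 have a share of 0% to 2.03% (HIST2H3PS2, HIST2H3C, HIST2H2AA3, HIST2H3A and HIST1H2AD). The other 2, HIST1H2AA and HIST1H2BA, known as testis histones, have a share of 100%. A count of 0 over the 4 libraries of a group allows up to 3 counts, counting error only. The 13 members with too few counts had 216 counts in WT and 246 in MIEN1_KO in all, with the larger total in MIEN1_KO in 7 and in WT in 6. Those with the most counts were HIST1H4H with 30 in WT and 54 in MIEN1_KO, HIST1H4J with 29 and 35, HIST1H2AI with 37 and 26, HIST3H2BB with 28 and 34, HIST2H2BF with 29 and 26 and HIST1H1B with 22 and 21.

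Genes that lie in the same stretches but are not histones were called in both directions, and the difference from the histone genes was not tested. Between the first and the last gene of the chromosome 6 array, a stretch of 2.17 Mb, 13 other coding genes were tested, of which 4 were higher and 3 lower, with a median log2 fold change of -0.06. With the GC correction 4 were higher and 1 lower, with a median of 0.08. The largest rises with the smallest p were those of ABT1 (0.32, edgeR adjusted p = 0.00560) and BTN3A2 (0.32, edgeR adjusted p = 0.00735), and BTN2A2 fell by 0.64 and ZNF184 by 0.28 on the log2 scale, the latter with -0.12 and no call under the GC correction. The called histone genes lie in 2 runs, 4 between 0.33 and 0.44 Mb from the start of the array and 3 between 1.40 and 1.42 Mb. The first run is not unbroken: HIST1H4C (0.38 Mb) and HIST1H1E (0.43 Mb) lie within it and were not called. Of 8 other coding genes between the runs, 3 were higher and 2 lower. On chromosome 1, the stretch from the first to the last HIST2 gene is 5.98 Mb. HIST2H3PS2 starts it at 143905556, and the next member, HIST2H2BF, starts only at 149782689. In this stretch 20 other coding genes were tested, with 3 higher and 3 lower and a median of -0.16, or -0.02 with the GC correction. PIAS3 (0.40) and ANKRD35 (0.96) were among those higher and FMO5 (-1.88) and CHD1L (-0.31) among those lower. Genes in this stretch can lie far from the other HIST2 genes.

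**Figure D4:**
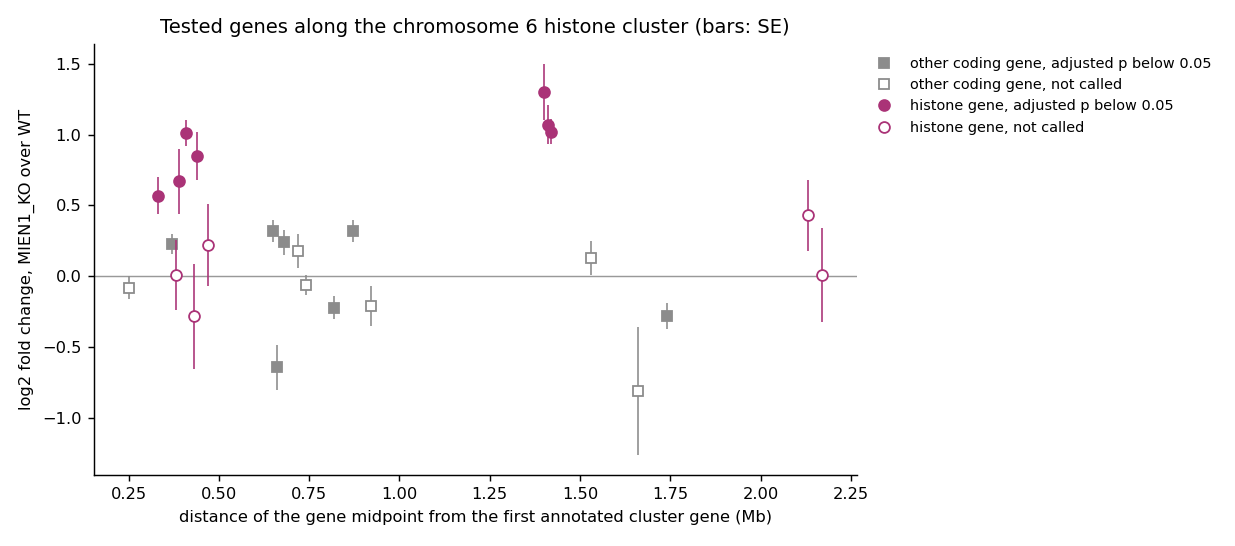
Log2 fold change (MIEN1_KO over WT, bars SE) of tested histone genes (circles) and other coding genes (squares) by distance in Mb from the first annotated gene of the chromosome 6 array, filled where the edgeR adjusted p was below 0.05. The filled circles lie at 0.57 and above, the filled squares at 0.32 and below.

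Of 22 tested genes for the processing and decay of histone mRNA (stem-loop, cap and 3′ end factors and decay), 5 were higher and 4 lower, a share near the 41.7% called over all tested genes, with a median log2 fold change of -0.02. SLBP, which binds the stem-loop, had 106.5 ± 2.27 CPM in WT and 108.5 ± 8.94 CPM in MIEN1_KO (log2 fold change 0.03, SE 0.07, edgeR adjusted p = 0.779). NPAT, the activator of histone transcription, was not called either (-0.21, SE 0.13). CASP8AP2 (FLASH), which works in histone 3′ end cleavage, fell by 0.66 on the log2 scale (edgeR adjusted p = 7.3e-04), from 30.0 ± 1.29 to 18.9 ± 3.99 CPM (SD, n = 4). ZNF473, a protein bound to the U7 snRNP, fell by 0.40 (edgeR adjusted p = 3.8e-04). CSTF2, part of the general polyadenylation machinery, rose by 0.35 (edgeR adjusted p = 7.7e-04). UPF1, used in histone mRNA decay, rose by 0.34 (edgeR adjusted p = 6.8e-04), but only by 0.04 with the GC correction, where it was not called.

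Replacement histones have mRNAs that mostly carry a poly-A tail and are made outside S phase as well. Of 10 tested genes, 4 were higher and none lower, with a median of 0.06. None was lower at an unadjusted edgeR p below 0.05, with DESeq2 or with limma-voom. H1F0, the linker histone of resting cells, rose by 0.35 (edgeR adjusted p = 6.4e-04). H1FX rose by 0.49 (edgeR adjusted p = 0.00289), with -0.07 and no call under the GC correction. H2AFX rose by 0.49 (edgeR adjusted p = 0.00302), with -0.01 and no call under the GC correction, and H2AFJ rose by 0.37 (edgeR adjusted p = 0.0284). Of 22 tested histone chaperone genes, 6 were higher and 3 lower (median 0.06). Both lists are near the 41.7% called over all tested genes. The chaperones had SSRP1 (0.22) and UBN1 (0.28) among those higher and MMS22L (-0.65) and ASF1A (-0.46) among those lower.

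Cell cycle genes were called about as often as all tested genes (41.7%). Of 41 tested S phase genes, 6 were higher and 10 lower (median -0.08). Of 24 genes of G2 and mitosis, 2 were higher and 7 lower (median -0.03). With the GC correction, 2 S phase genes were higher and 10 lower (median -0.03). For G2 and mitosis, that correction gave 2 higher and 4 lower (median -0.02). Over all genes it gave 16.7% higher and 19.4% lower. MCM2 and MCM5, subunits of the replicative helicase, rose by 0.29 and 0.33, but only by 0.04 and 0.11 and without a call under the GC correction. E2F8 fell by 0.34 on the log2 scale and CCNE1 (cyclin E1) by 0.26, both with an edgeR adjusted p below 0.05. PCNA was not called (-0.11, SE 0.07), and neither was MKI67, the proliferation marker (-0.03, SE 0.11). In G2 and mitosis, PLK1 and CDC20 each rose by 0.28, with no call under the GC correction, and TTK fell by 0.87 and CDK1 by 0.48.

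RNAs that lack an ordinary poly-A tail were listed to look at untailed RNA in the libraries. Of 31 listed, 6 had an identifier in the files and 4 were tested, with 1 lower. None was higher, also at an unadjusted edgeR p below 0.05 and with DESeq2 or limma-voom. MALAT1, whose end is a triple helix and which is rich in A, fell by 0.55 on the log2 scale (edgeR adjusted p = 0.00195). The summed level of the 6 was 914.8 to 1103 CPM in WT and 562.2 to 837.1 CPM in MIEN1_KO, nearly all of it MALAT1. As MALAT1 is rich in A and may bind poly-T beads, this sum does not measure how much untailed RNA was carried through. SCARNA9 was not called (log2 fold change -0.98, SE 0.42, edgeR adjusted p = 0.0750), but its unadjusted edgeR p was below 0.05. It, SNORD3A and RMRP, the others tested, were below 1 CPM in both groups, and RN7SK was not analysed here.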

How the data were processed

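Poly-A RNA of 4 WT and 4 MIEN1_KO libraries was analysed from the deposited counts, which are raw whole numbers of reads for each gene and library. The authors, per the submitters' processing notes, aligned reads to GRCh38 with TopHat2 2.0.9 and counted them with HTSeq 0.6.1. Their annotation, strand setting, counting mode and treatment of reads with several positions are unstated, so overlapping genes cannot be told apart.

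Of 48162 identifiers, 45342 were found in GENCODE 29, and the 2820 without a name held 1.09% of counts. Genes were tested in 1 fit with edgeR 4.0.16 (filterByExpr, TMM factors 0.926 to 1.03, robust quasi-likelihood F test, two-sided, Benjamini-Hochberg adjusted over 14228 genes, 33934 left out). CPM are scaled with the TMM factors, and the SE of a log2 fold change follows from the F statistic. The totals of 21940903 to 25148790 counts set the precision, which covers counting error only where a limit is given. MIEN1 was also tested by exact permutation.

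Alternatives were DESeq2 1.42.0 size factors and its Wald test, upper-quartile factors, limma-voom (limma 3.58.1), no filter, a stricter filter (50 counts or more in 4 or more libraries), the replicate number as a block, a loess GC offset (span 0.5) and leaving out each library. R 4.3.3 and Python 3.11.15 were used, and the fit was tested on simulated data.

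The members and gene lists were chosen with earlier results of these data known. All tested members are named, with 6 untested ones that had the most counts, and from each other list the 2 called genes with the smallest p in each direction, plus SLBP, NPAT, CCNE1, PCNA, MKI67, H1F0 and RN7SK. Others (H2AFX, H2AFJ, H2BFS, HIST1H1T, the colon markers, COL1A1 and tested untailed RNAs) were named after their values were seen. RefSeq matched all 71 members, and 66 have a promoter window.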

Additional observations from a re-analysis of the deposited data

Results flagged for a closer look

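In 7 of 122 groups of 4 libraries checked, 1 library lay far from the other 3. Chance flags about 1 in 20 groups. HIST1H2BJ had 1.58 CPM in WT replicate 4, where the other WT libraries had 0.960 to 0.970 CPM. HIST1H2AG had 1.55 CPM in WT replicate 3, against 1.96 to 2.02 CPM. HIST1H4H, with too few counts to test, had 0.877 CPM in WT replicate 4, against 0.116 to 0.167 CPM.

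Among the other genes named, 3 of the 4 stood out in MIEN1_KO replicate 4, the library that differs most from the rest: H1FX with 124 CPM against 86.0 to 87.3 CPM, MMS22L with 15.8 CPM against 22.2 to 22.8 CPM, and CDC20 with 242 CPM against 193 to 199 CPM. UPF1 had 245 CPM in MIEN1_KO replicate 2, against 272 to 276 CPM in the other edited libraries.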

How the results depend on the processing

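The count of histone cluster genes higher in MIEN1_KO was 9, the same genes, in 7 of 8 alternatives that used all libraries. It was 7 of 7 tested under the filter of 50 counts. HIST1H2AG passed that filter through the edited libraries, with 47, 52, 37 and 45 counts in WT and 100, 101, 80 and 78 in MIEN1_KO. The share under that filter is therefore no separate support. Leaving out 1 library gave a count of 8 to 9, with HIST1H2BC the only one missing. Without the filter on low counts, 1 member was lower, HIST1H1T, with 7 counts in WT and 0 in MIEN1_KO. MIEN1 stayed between -4.89 and -4.62.

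Signs of uncalled members turned as follows. The GC correction gave -0.29 for HIST2H2AC, -0.01 for HIST1H4C, -0.14 for HIST1H3D and -0.36 for HIST1H3J. Upper-quartile factors gave -0.06 for HIST1H4C and HIST1H3J, and no filter gave -0.01 for both. Leaving out a library gave -0.07 to 0.29 for HIST2H2AC, -0.15 to 0.16 for HIST1H4C, -0.46 to 0.04 for HIST1H1E and -0.23 to 0.33 for HIST1H3J. The cause was not tested.

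Among the lists, the called untailed RNAs went from 1 to 2 (SCARNA9 added) without the filter, with the replicate block and without WT replicate 4 (range 1 to 2). The called histone chaperones were 5 to 12 and the called chromosome 6 neighbours 4 to 8 with a library left out, at 5 without WT replicate 2 or 3 and at 4 without WT replicate 1, WT replicate 3 or MIEN1_KO replicate 3.

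Replicate numbers do not pair the libraries: same-numbered WT and MIEN1_KO libraries correlated at -0.08, 0.20, 0.07 and 0.01. With the replicate number as a block, 9 members were higher and none lower, and 5967 genes were called in place of 5927. Members with under about 100 counts per group carry SEs of 0.23 or more.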
